A study of Mus musculus with 6 samples.

Results

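The mouse mitochondrial chromosome carries 37 genes, and the deposited expression table holds a row for each of them. These 37 rows of 32815 were taken by their chromosome, MT, and ordered by start and strand, with no use of their levels. They comprise 13 messenger RNAs, 2 ribosomal RNAs and 22 transfer RNAs. Of the 37, 28 lie on the strand the table writes as +, called the heavy-strand genes here, and 9 on the strand written as -, called the light-strand genes.

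RNA was sequenced from C2C12 cells, an immortalised mouse myoblast line, labelled wild-type, in 6 libraries with a single batch label. The 3 control libraries carry no further description, and the 3 others, labelled MS, are from cells put through cyclic mechanical stretch in a four-point bending system, at 5333 μ (the unit is not spelled out), a plate displacement of 4 mm and 1 Hz for 8 h. The RNA was selected with oligo(dT), so every value below is a level in tail-selected RNA. Whether separate cultures were used within a group is not stated, so p-values measure the spread between these 6 libraries and that spread may be technical.

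As background, both strands of the mitochondrial genome are transcribed into long precursors that span most of the circle. Enzymes cut out the transfer RNAs, which sit between most of the other genes, and this frees the messages and ribosomal RNAs. The messages encode core subunits of the respiratory chain complexes and of the ATP synthase, and most of them receive a poly(A) tail. In human cells the message of ND6, the only one from the light strand, is known to lack a stable tail.

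The libraries control 3 and MS 1 stood apart from the others in transcripts that are not those of a myoblast. Of 18 listed tongue and salivary gland genes 14 matched a row, with a total of 130 FPKM for control 3 and 160 for MS 1, against 7.59 to 11.2 in the other 4 libraries. FPKM are fragments scaled to transcript length and to the library total. A list of 14 kidney genes summed to 4.42 and 4.51 FPKM in control 1 and control 2 and to between 104 and 115 in the other 4. The 17 matched of 18 lens genes were at 305 and 374 FPKM in control 3 and MS 1 and at 1239 to 1635 elsewhere, and 5 of 6 matched heart and muscle fibre genes were at 26.4 and 29.6 against 4.88 to 10.7. No matched gene of these 4 lists was at 0 throughout. Of 8 myoblast markers 6 were tested between the groups, of which 3 were called lower in MS and 1 higher (limma, adjusted over all tested genes). Over all tested genes the shares called were 23.2% lower and 30.6% higher. Those lower were Itga7, at 19.3 to 22.9 FPKM in control and 13.5 to 16.5 in MS, Cdh15, at 1.28 to 2.02 and 0.740 to 0.893, and Myod1, at 1.42 to 2.00 and 0.823 to 1.20. Cdh15 reached the tested minimum, a mean of 1 FPKM, only through control, so its call is not read as a result. Chrna1 was higher, at 3.75 to 4.25 FPKM in control and 5.34 to 5.85 in MS. Des, at 51.0 to 59.8 and 46.7 to 57.8 FPKM, and Myf5, at 2.32 to 2.50 and 1.63 to 2.11, did not pass the test. Msc stayed under 1 FPKM, and Pax7 was listed at 0 in all libraries except MS 3, where it was at 0.0094. Results below are therefore also given as MS 1 minus control 3, the only contrast within 1 set of libraries alike in these lists. That fit has a term for 3 sets of libraries and takes its spread from control 1 and 2 and MS 2 and 3.

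Some messages end in the genome within the stop codon, which the tail is known to complete. They are shown because tail selection acts at this end. Of the 13 message rows, 10 end with a whole codon and 3 with a single T, in capitals here, as is the stop codon of mt-Co1, which ends whole. The last 2 bases of the mt-Nd1 and mt-Nd2 rows also belong to the mt-Ti and mt-Tw rows on the same strand. The end of a row therefore need not be the end of its message. The last 30 bases of each row, 5′ to 3′ along the gene, are from the GENCODE M21 transcripts matched by gene ID, all 37 of which have the length, start, end and strand of the table's row.
mt-Co3, MT 8607 to 9390, + strand: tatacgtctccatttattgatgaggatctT
mt-Nd4, MT 10167 to 11544, + strand: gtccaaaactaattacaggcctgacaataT
mt-Cytb, MT 14145 to 15288, + strand: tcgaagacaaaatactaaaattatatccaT
mt-Co1, MT 5328 to 6872, + strand: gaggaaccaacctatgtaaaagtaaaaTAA

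Every message row was lower in MS, both ribosomal RNA rows were higher, and most transfer RNA rows were lower. All 37 rows reached the tested minimum, a mean of 1 FPKM over the 6 libraries, with 12028 rows of the table in all. A limma model on log2(FPKM + 1) called 27 of the 37 rows lower and 4 higher at an adjusted p under 0.05 (Benjamini-Hochberg over all 12028 genes). One of the 4, mt-Tf, reached the minimum only through MS, where it was high, so its difference follows in part from the filter; without it 3 of 36 rows were called higher. Among the rows called lower, mt-Td, mt-Tg, mt-Tr and mt-Tl2 had MS means under 1 FPKM. They reached the minimum only through control, where they were high, so their differences also follow in part from the filter. Of all tested genes 23.2% were called lower and 30.6% higher. The groups did not overlap for 31 of the 37 rows, against 62.7% of all tested genes. The median log2 fold change was -2.49 over the 37 rows and 0.05 over all tested genes. In bulk RNA, a lower level in every cell and fewer cells with the transcript cannot be told apart.

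**Figure D1:**
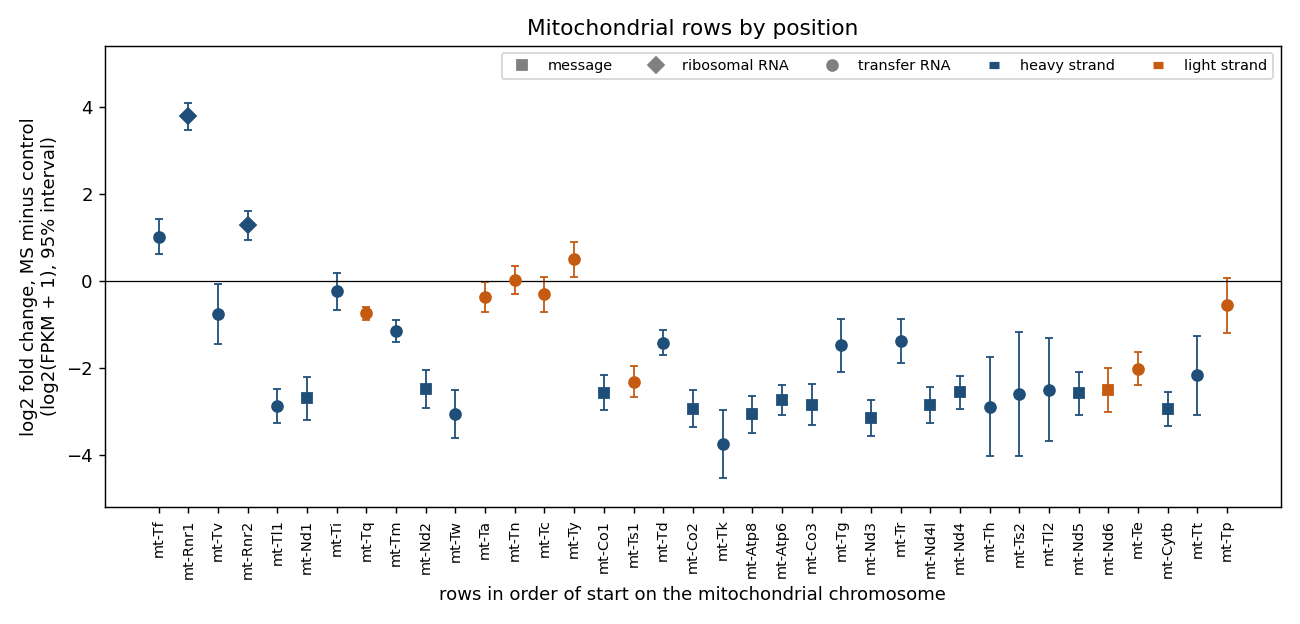
Log2 fold change (MS minus control, on log2(FPKM + 1)) of the 37 mitochondrial rows in order of start, with 95% intervals from limma, n = 3 libraries per group. Squares are messages, diamonds ribosomal RNAs and circles transfer RNAs, blue for the heavy and orange for the light strand; mt-Rnr1 (3.78) and mt-Rnr2 (1.28) stand above 0 and the 13 messages lie between -3.15 and -2.49.

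All 13 messages fell, by factors of 5.48 to 9.09 in group means. Their log2 fold changes ran from -3.15 for mt-Nd3 to -2.49 for mt-Nd2, with adjusted p between 2.21e-05 and 0.000116 (limma). In MS 1 minus control 3 they ran from -2.90 to -2.11, and all 13 stayed called lower. At or below -2.49 there were 19 tested genes off the mitochondrial chromosome, 0.158% of them. The 19 include Gm28438, Gm28661, Gm10222, Gm28437, Gm10925 and Gm28439, copies of these messages on chromosome 1 described below. The 19 are therefore not all independent of the messages.

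Messages of complex I, the NADH dehydrogenase that feeds electrons into the chain, held the smallest and the largest of these falls. mt-Nd1 (MT, 2751 to 3707) was at 2931, 3136 and 3416 FPKM in control 1, 2 and 3 and at 693, 367 and 443 in MS 1, 2 and 3. mt-Nd2 (3914 to 4951) was at 1910, 2005 and 2140 FPKM in control libraries and 490, 283 and 331 in MS libraries. In both, every MS library lay far below every control library, and MS 1 was the highest of the 3 MS libraries. mt-Nd3 (9459 to 9806) stood at 171, 181 and 210 FPKM in control libraries and 27.3, 16.7 and 17.8 in MS libraries, the lowest level of any message in all 6 libraries (log2 fold change -3.15, SE 0.18, adjusted p = 2.3e-05, limma). mt-Nd4l (9877 to 10173) was at 1547, 1501 and 1635 FPKM in control libraries and 290, 170 and 197 in MS libraries. It shares a transcript with mt-Nd4 (10167 to 11544), and their rows overlap by 7 bases. mt-Nd4 was at 1630, 1692 and 1752 FPKM in control libraries and 379, 238 and 258 in MS libraries. mt-Nd5 (11742 to 13565), the longest row, was at 1623, 1711 and 1894 FPKM in control libraries and 410, 217 and 268 in MS libraries. The light-strand message mt-Nd6 (13552 to 14070, - strand), also of complex I, was at 829, 909 and 1001 FPKM in control libraries and 232, 123 and 143 in MS libraries. Its log2 fold change was -2.50 (SE 0.22, adjusted p = 0.000116, limma), inside the range of the heavy-strand messages. In MS 1 minus control 3 mt-Nd6 was at -2.11, the smallest fall of any message, just outside the heavy-strand range of -2.90 to -2.12.

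Cytochrome b, the mitochondrially encoded subunit of complex III, was among the messages that fell further. mt-Cytb (14145 to 15288) was at 4434, 4597 and 4493 FPKM in control libraries and 774, 469 and 545 in MS libraries, with a log2 fold change of -2.95 (SE 0.17, adjusted p = 2.3e-05, limma). The 3 control libraries lay close together, and MS 1 was again the highest of the MS libraries.

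The 3 core subunits of cytochrome c oxidase, complex IV, included the most abundant message. mt-Co1 (5328 to 6872) was at 8820, 9305 and 10458 FPKM in control libraries and 2129, 1328 and 1441 in MS libraries, and was the most abundant message of the 13 in each library. mt-Co2 (7013 to 7696) was at 4110, 4186 and 4348 FPKM in control libraries and 743, 427 and 515 in MS libraries. mt-Co3 (8607 to 9390) was at 3277, 3491 and 3324 FPKM in control libraries and 657, 354 and 434 in MS libraries. The log2 fold changes were -2.57 for mt-Co1, -2.94 for mt-Co2 and -2.85 for mt-Co3, so mt-Co1 fell least of the 3.

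The ATP synthase subunits mt-Atp8 and mt-Atp6 are read from 1 message in overlapping frames, and their rows share 43 bases, 21.1% of the mt-Atp8 row. The shared stretch is shown because fragments in it can be assigned to either row, with the start codon of mt-Atp6 and the stop codon of mt-Atp8 in capitals.
mt-Atp8 and mt-Atp6, MT 7927 to 7969, + strand: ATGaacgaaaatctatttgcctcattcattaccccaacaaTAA
mt-Atp8 (7766 to 7969) was at 5423, 5503 and 5654 FPKM in control libraries and 893, 513 and 622 in MS libraries. mt-Atp6 (7927 to 8607) was at 3530, 3712 and 3729 FPKM in control libraries and 704, 456 and 504 in MS libraries. Although the subunits share a message, the row of mt-Atp8 was higher than that of mt-Atp6 in each library. The log2 fold changes were -3.07 (SE 0.18) for mt-Atp8 and -2.74 (SE 0.15) for mt-Atp6. The mt-Atp8 row is 204 bases long, shorter than the stated insert of 300 ± 50 bp.

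**Figure D2:**
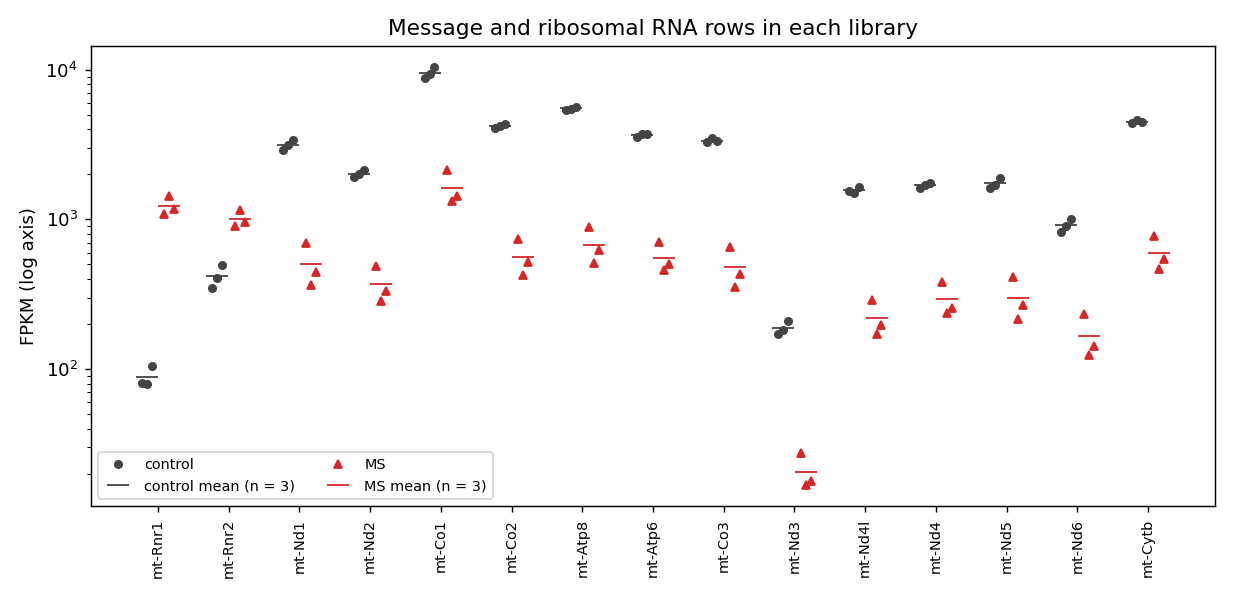
FPKM (log axis) of the 13 message and 2 ribosomal RNA rows in each of the 6 libraries, in order of position; points are libraries and bars are group means (n = 3). Each message has all 3 MS libraries below all 3 control libraries, and for mt-Rnr1 and mt-Rnr2 the order is the opposite, with MS at 1083 to 1430 and 904 to 1157 FPKM.

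The order of message levels was nearly the same in control and MS libraries. In all 6 libraries mt-Co1, mt-Atp8 and mt-Cytb held the 3 highest places and mt-Nd4l, mt-Nd6 and mt-Nd3 the 3 lowest. Neighbours that changed places among libraries were mt-Co2 and mt-Atp6, mt-Co3 and mt-Nd1, and mt-Nd5 and mt-Nd4. In control mt-Co2 was above mt-Atp6 in all 3 libraries, and in MS mt-Nd1 was above mt-Co3 in all 3; the order of mt-Nd5 and mt-Nd4 varied within both groups. The span widened: mt-Co1 was between 49.8 and 51.6 times the level of mt-Nd3 in control and between 77.9 and 80.9 times in MS. Likewise mt-Co1 exceeded the second message, mt-Atp8, by 1.63 to 1.85 times in control and by 2.32 to 2.59 times in MS.

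Rows off the mitochondrial chromosome copy some of these messages. Annotated transcripts of at least 95% identity over at least 50% of a member were found for mt-Co1, mt-Co2, mt-Atp6, mt-Co3, mt-Nd3, mt-Nd4l, mt-Nd4 and mt-Nd5. On chromosome 1 the copies Gm28661 (24653966 to 24654646), Gm28437 (24652270 to 24653052) and Gm10222 (24651488 to 24651781) were within 5% of mt-Co2, mt-Co3 and mt-Nd4l in each library. Also there, Gm10925 was at 106% to 107% of mt-Atp6, Gm28438 at 105% to 112% of mt-Nd3 and Gm28439 at 55.7% to 60.9% of mt-Nd4. At 100% identity in the aligned stretch, which all of these but Gm28438 (99.7%) have, fragments cannot be told apart by sequence. The rule for dividing them was not given in the sources used here, so the absolute levels of these rows are uncertain. This also limits the span of mt-Co1 over mt-Nd3 and the comparisons of mt-Atp8 with mt-Atp6 and of mt-Nd4l with mt-Nd4. The 6 messages without a copy row at 1 FPKM or more in control (mt-Nd1, mt-Nd2, mt-Atp8, mt-Nd5, mt-Nd6 and mt-Cytb) had log2 fold changes of -3.07 to -2.49, and the 7 with one had -3.15 to -2.56. Both ranges were negative throughout.

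The ribosomal RNAs rose while the messages encoded just downstream of them fell. mt-Rnr1, the RNA of the small mitochondrial ribosomal subunit (MT, 70 to 1024), was at 81.2, 79.7 and 104 FPKM in control libraries and 1083, 1430 and 1165 in MS libraries. mt-Rnr2, the RNA of the large subunit (1094 to 2675), was at 349, 405 and 497 FPKM in control libraries and 904, 1157 and 957 in MS libraries. Neither pair of groups overlapped, and the rise was 13.9 times for mt-Rnr1 and 2.41 times for mt-Rnr2 in group means. The log2 fold changes were 3.78 (SE 0.13, adjusted p = 1.09e-05) and 1.28 (SE 0.14, adjusted p = 0.000345, limma). In MS 1 minus control 3 they were 3.36 (adjusted p = 0.000315) and 0.86 (adjusted p = 0.0129). In control mt-Rnr2 was the higher of the pair in each library, and in MS mt-Rnr1 was.

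Of 2 tested nuclear ribosomal RNA rows, 1 was called higher and 1 did not pass the test. The row ENSMUSG00000119584 (chromosome 17, 40157244 to 40159092, mm39) was at 1916, 2128 and 1525 FPKM in control libraries and 4793, 12353 and 11918 in MS libraries, a log2 fold change of 2.27 (adjusted p = 0.00156, limma) and of 1.65 in MS 1 minus control 3 (adjusted p = 0.000507). The other row, ENSMUSG00002075149, was at 0.527 to 1.16 FPKM in control libraries and 0.882 to 1.82 in MS libraries (0.36, adjusted p = 0.159). The abundant row was lowest of the MS libraries in MS 1, as both mitochondrial rows were. Of the control libraries it was lowest in control 3, where both mitochondrial rows were highest. Of the replication-dependent histone transcripts, which mostly lack a tail, 67 rows together held 69.0 to 106 FPKM in control libraries against 83.9 to 97.6 in MS libraries. Of 11 tested, 3 were called higher and 3 lower, which is near the 30.6% higher and 23.2% lower over all tested genes. Whether the efficiency of tail selection differed between the groups was not tested.

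Transfer RNA rows are 59 to 75 bases long, shorter than the insert, so their values count fragments that reach into them, and a level here is not that of the mature molecule. Of the 21 rows other than mt-Tf, 14 were called lower, 1 higher and 6 did not pass the test, with a median log2 fold change of -1.43. The shares over all tested genes were 23.2% lower and 30.6% higher. The rows mt-Td, mt-Tg, mt-Tr and mt-Tl2, all called lower, had MS means under 1 FPKM. They reached the minimum only through control, so their calls are not read as results. The count of 14 and the median of -1.43 still include them. The rows are grouped below by the genes beside them. The sequences of those with the highest level and the outermost changes in each group, with the anticodon in capitals, show how little of a fragment they can hold. They are written 5′ to 3′ along the gene from the GENCODE M21 transcripts.
mt-Tf, phenylalanine, MT 1 to 68, + strand: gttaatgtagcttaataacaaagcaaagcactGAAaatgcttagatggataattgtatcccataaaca
mt-Tl1, leucine, MT 2676 to 2750, + strand: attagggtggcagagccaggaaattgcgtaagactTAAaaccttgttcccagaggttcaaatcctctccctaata
mt-Ti, isoleucine, MT 3706 to 3774, + strand: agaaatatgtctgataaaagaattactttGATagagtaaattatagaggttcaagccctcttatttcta
mt-Tw, tryptophan, MT 4950 to 5016, + strand: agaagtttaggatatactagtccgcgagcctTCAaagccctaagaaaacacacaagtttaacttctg
mt-Tk, lysine, MT 7700 to 7764, + strand: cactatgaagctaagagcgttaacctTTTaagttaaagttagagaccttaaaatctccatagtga
mt-Ty, tyrosine, MT 5260 to 5326, - strand: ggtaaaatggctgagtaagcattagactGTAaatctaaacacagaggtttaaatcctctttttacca
mt-Ts1, serine, MT 6870 to 6938, - strand: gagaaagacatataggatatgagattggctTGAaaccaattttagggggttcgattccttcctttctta

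Of the 3 transfer RNA rows beside the ribosomal RNA genes, mt-Tl1 fell with the messages. mt-Tf, upstream of mt-Rnr1, was at 0.556, 0.624 and 0.152 FPKM in control libraries and 2.51, 1.60 and 1.65 in MS libraries, and its groups did not overlap. These levels are near or under the minimum and the filter chose the row by its MS values, so its call is not read as a result. mt-Tv, the valine transfer RNA between the ribosomal genes, was at 2.102, 1.51 and 4.88 FPKM in control libraries and 1.46, 0.998 and 0.902 in MS libraries. Its groups did not overlap, but its log2 fold change of -0.76 did not pass the test (adjusted p = 0.0632), and the call depended on the setting. The log2 fold change was -1.26 in MS 1 minus control 3 (adjusted p = 0.00642), -1.02 without control 2 (adjusted p = 0.0258) and -0.41 without control 3 (adjusted p = 0.0611). mt-Tl1, which joins mt-Rnr2 to mt-Nd1, was at 498, 575 and 678 FPKM in control libraries and 99.6, 68.3 and 70.0 in MS libraries. Its fall, a log2 fold change of -2.88 (SE 0.17, adjusted p = 2.45e-05), was close to that of mt-Nd1 at -2.70, while mt-Rnr2 on its other side rose.

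The 11 heavy-strand rows beside messages were mostly lower, 10 of them called and 0 called higher. The 10 include mt-Td, mt-Tg, mt-Tr and mt-Tl2, which the filter chose by their control values. Their calls are not read as results, and the shares over all tested genes were 23.2% lower and 30.6% higher. mt-Tw, between mt-Nd2 and the light-strand cluster that follows it, had the highest mean over the 6 libraries, at 70.7, 80.7 and 104 FPKM in control libraries and 13.7, 7.05 and 8.03 in MS libraries (log2 fold change -3.05). In each MS library mt-Tm was above it. mt-Tk, between mt-Co2 and mt-Atp8, was at 41.7, 46.5 and 53.1 FPKM in control libraries and 4.97, 1.12 and 2.55 in MS libraries. Its log2 fold change was -3.75 (SE 0.33, adjusted p = 0.000131, limma), the lowest of the 37 rows between the groups. In MS 1 minus control 3 it was -3.18, and mt-Th (-3.86), mt-Ts2 (-3.58) and mt-Tl2 (-3.36) were lower. mt-Ti, after mt-Nd1, did not pass the test, at 5.18, 9.60 and 8.04 FPKM in control libraries and 6.58, 5.85 and 5.87 in MS libraries (log2 fold change -0.24, 95% interval -0.67 to 0.18, adjusted p = 0.294). Without control 1 it was -0.47 and called lower (adjusted p = 0.00859), and without control 2 it was -0.08 (adjusted p = 0.727). mt-Tm, the methionine transfer RNA before mt-Nd2, fell by 1.16 on the log2 scale. The other rows of this group, mt-Td, mt-Tg, mt-Tr, mt-Th, mt-Ts2, mt-Tl2 and mt-Tt, carry aspartate, glycine, arginine, histidine, serine, leucine and threonine, and had log2 fold changes between -2.90 and -1.39. Of these, mt-Tt lost its call in MS 1 minus control 3 (-1.30, adjusted p = 0.0916).

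**Figure D3:**
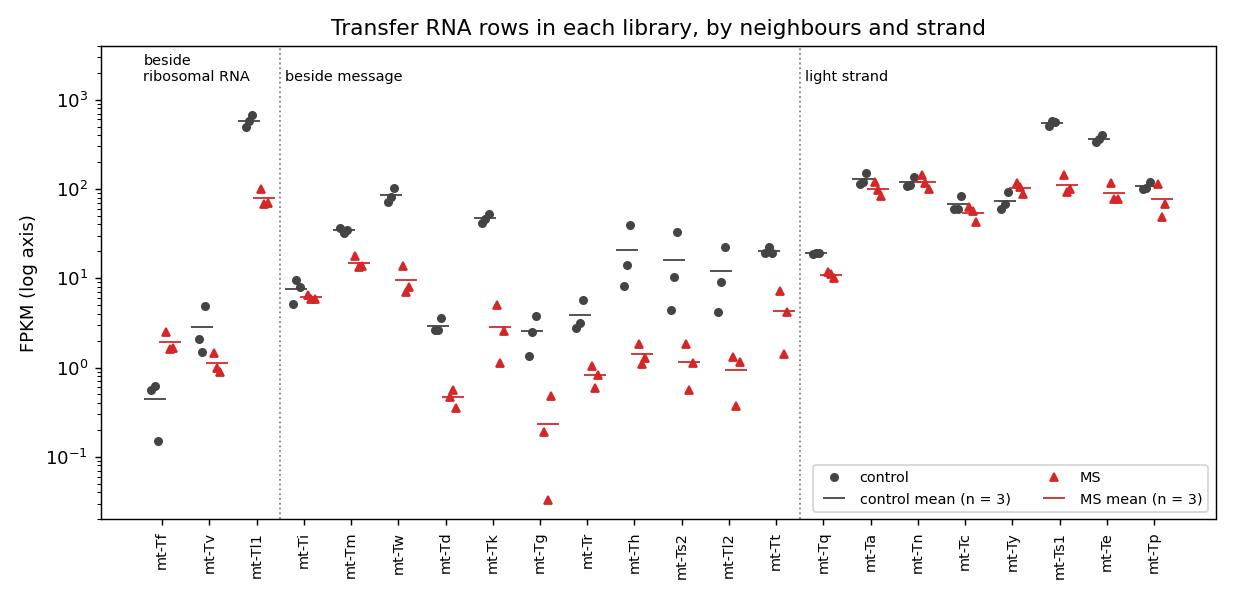
FPKM (log axis) of the 22 transfer RNA rows in each library, grouped by the genes beside them or by strand; points are libraries and bars are group means (n = 3). The 3 MS libraries of mt-Tk (1.12 to 4.97 FPKM) lie below its control libraries (41.7 to 53.1), whereas the groups of mt-Tn overlap (108 to 138 FPKM in control and 101 to 142 in MS).

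Of the 9 light-strand rows, 4 were called lower (mt-Nd6, mt-Te, mt-Ts1 and mt-Tq), 1 was called higher and 4 did not pass the test. Among all tested genes 23.2% were called lower and 30.6% higher. The median log2 fold change was -0.57 over the 9 light-strand rows against -2.58 over the 28 heavy-strand rows. These sets differ in class, since 8 of the 9 are transfer RNAs and 12 of the 28 are messages. Among transfer RNA rows alone the medians were -0.47 on the light and -1.83 on the heavy strand. Both heavy-strand medians include mt-Tf, mt-Td, mt-Tg, mt-Tr and mt-Tl2, which the filter chose by the values of 1 group. mt-Te, the glutamate transfer RNA next to mt-Nd6, was at 333, 362 and 400 FPKM in control libraries and 117, 77.9 and 77.8 in MS libraries (log2 fold change -2.02). mt-Ts1 lies opposite the end of mt-Co1, with which it overlaps by 3 bases, and was at 514, 572 and 562 FPKM in control libraries and 142, 91.5 and 100 in MS libraries (log2 fold change -2.32, SE 0.15, adjusted p = 3.78e-05, limma). The library kit marks the strand, but the use of strand in the authors' counting was not given in the sources used here. Without it, heavy-strand RNA that runs across a light-strand row, as the long precursors do, would be counted in that row. This holds for the whole row and not only where annotated rows overlap, as mt-Nd5 and mt-Nd6 do by 14 bases. The levels of the 9 light-strand rows are uncertain in this respect.

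In a run of 4 light-strand transfer RNAs between mt-Tw and mt-Co1 none was called lower and 1 was called higher. Over all tested genes 23.2% were called lower and 30.6% higher, and 4 rows are too few to set against these shares. mt-Ta, for alanine (5018 to 5086), was at 114, 121 and 150 FPKM in control libraries and 119, 97.8 and 82.5 in MS libraries. mt-Tn, for asparagine (5089 to 5159), was at 108, 109 and 138 FPKM in control libraries and 142, 118 and 101 in MS libraries. mt-Tc, for cysteine (5192 to 5257), was at 60.3, 60.1 and 82.5 FPKM in control libraries and 63.3, 56.7 and 43.1 in MS libraries. These 3 overlapped between the groups and did not pass the test, with log2 fold changes of -0.37 (95% interval -0.72 to -0.02, adjusted p = 0.069, limma), 0.02 (-0.31 to 0.35) and -0.31 (-0.71 to 0.08). With a term for control 3 and MS 1 in the model, mt-Ta (adjusted p = 0.00541) and mt-Tc (adjusted p = 0.0347) were called lower. mt-Ty was called higher, at 60.2, 67.5 and 93.2 FPKM in control libraries and 116, 104 and 87.3 in MS libraries (log2 fold change 0.49, SE 0.17, adjusted p = 0.0434, limma). Its groups overlapped too, and the call was lost in 10 of 15 alternatives, among them MS 1 minus control 3 (0.32, adjusted p = 0.147). On either side of this run mt-Tw fell by 3.05 and mt-Co1 fell by 2.57 on the log2 scale.

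The remaining light-strand rows lie at either end. mt-Tq, for glutamine (3772 to 3842), fell from 18.8, 19.4 and 19.2 FPKM in control to 11.7, 11.1 and 10.1 in MS (log2 fold change -0.75, SE 0.06, adjusted p = 8.6e-05, limma), the smallest SE of the 37 rows. mt-Tp, for proline (15356 to 15422), was at 101, 103 and 120 FPKM in control libraries and 114, 49.1 and 67.5 in MS libraries. MS 1 lay inside the control range and the other MS libraries below it, and the log2 fold change of -0.57 did not pass the test (adjusted p = 0.116), with -0.07 in MS 1 minus control 3. Without MS 1 it was -0.89 (adjusted p = 0.00356).

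Ratios between rows within a library do not depend on the library total. For 14 pairs (successive message or ribosomal rows of the heavy strand, and mt-Nd6 with mt-Cytb) the log2 ratio of FPKM was compared between the groups. In 11 of the 14 the groups did not overlap, which gave an exact two-sided permutation p = 0.1 for each, the smallest that 3 against 3 libraries allow, and 0.127 after Benjamini-Hochberg adjustment over the 14, so none passed. The ratio of mt-Rnr1 to mt-Rnr2 was -2.23 ± 0.122 in control and 0.28 ± 0.0228 in MS on the log2 scale (SD, n = 3), a shift of 5.72 times. The ratio of mt-Rnr2 to mt-Nd1 was -3.07, -2.95 and -2.78 in control and 0.38, 1.66 and 1.11 in MS, a shift of 15.8 times. Among messages the shifts were far smaller, between 1.02 and 1.36 times. The ratio of mt-Nd6 to mt-Cytb was -2.42, -2.34 and -2.17 in control and -1.74, -1.93 and -1.93 in MS, a shift of 1.36 times with no overlap between the groups. The ratio of mt-Atp8 to mt-Atp6, from the same message, went from 0.60 ± 0.026 to 0.27 ± 0.0908, and that of mt-Nd4l to mt-Nd4 from -0.12 ± 0.0509 to -0.42 ± 0.0556.

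**Figure D4:**
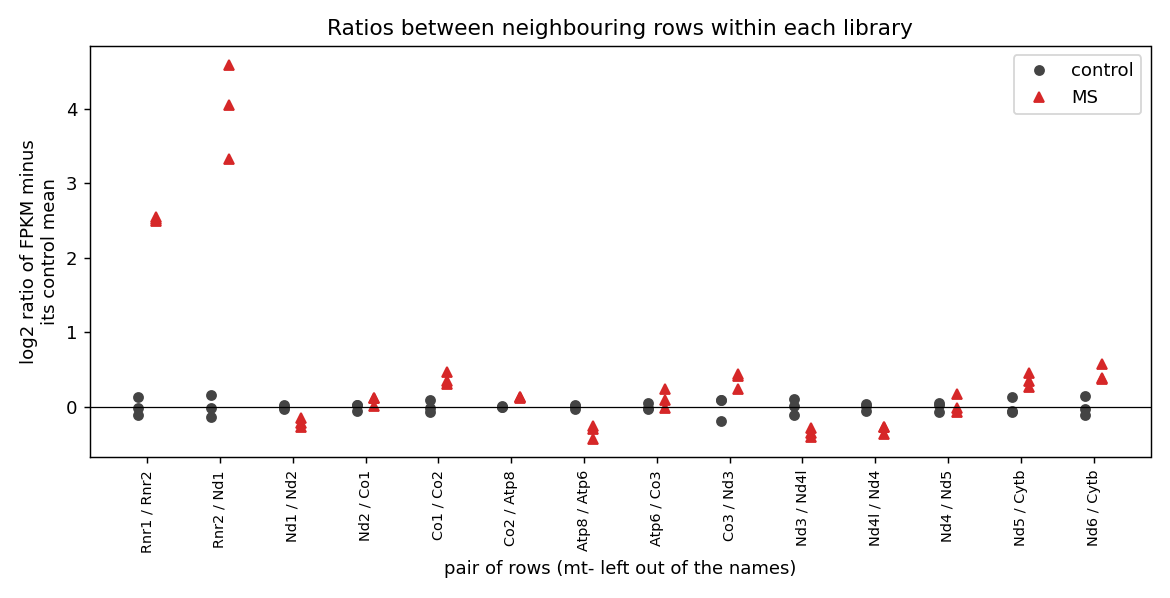
Log2 ratio of FPKM between 2 rows in each library, minus its control mean, for 14 pairs in order of position and mt-Nd6 with mt-Cytb last. Circles are control and triangles MS (n = 3 each); the pairs with mt-Rnr2 shift by 2.52 and 3.98 and those between messages by at most 0.44 on the log2 scale.

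The share of each class within the mitochondrial rows changed accordingly. FPKM times row length, which stands for the amount of sequenced RNA, was 1.60%, 1.74% and 2.01% ribosomal in control and 22.3%, 38.5% and 31.1% in MS. Messages went from 97.8% ± 0.232 to 68.8% ± 8.08 and transfer RNA rows from 0.382% ± 0.026 to 0.589% ± 0.0287 (SD, n = 3). The light strand held 1.32% to 1.42% in control and 1.27% to 1.60% in MS, which overlap. With ribosomal rows left out of the total it held 1.35% to 1.45% in control and 1.95% to 2.07% in MS, which do not. These sums run over rows of one chromosome and were not tested. Of FPKM summed over the whole table, the 37 rows held 13.2% to 14.3% in control libraries and 2.73% to 3.81% in MS libraries. Fragments assigned to the chromosome 1 copies are not in this share, and the rule for dividing them was not given.

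Nuclear genes that transcribe, cut, modify and stabilise mitochondrial RNA, or copy its DNA, included more that were called higher than lower. Of 45 listed names, which include aliases, 43 matched a row and 42 were tested. Of these, 24 were called higher and 1 lower, against 30.6% higher and 23.2% lower of all tested genes, with a median log2 fold change of 0.24. In MS 1 minus control 3, 5 of the 42 were called higher and 0 lower, against 15.3% and 11% of all tested genes, so the share called higher was near the background there. Trmt10c, a subunit of the enzyme that cuts the front ends of mitochondrial transfer RNAs, rose from 4.57, 5.07 and 5.17 FPKM to 8.09, 9.44 and 8.64 (log2 fold change 0.71, adjusted p = 0.00023, limma). Lrpprc, which stabilises mitochondrial messages, rose from 10.95, 10.8 and 13.5 to 18.2, 20.1 and 17.9 FPKM (0.63, adjusted p = 0.00109). Twnk, the helicase of mitochondrial DNA replication, rose from 8.05, 7.93 and 8.13 to 12.8, 13.1 and 12.2 FPKM (0.60, adjusted p = 8.74e-05). These 3 kept their calls in MS 1 minus control 3. Tfb1m, which methylates the small ribosomal RNA, was the single gene called lower, from 2.99, 2.99 and 3.40 to 2.48, 2.36 and 2.62 FPKM (-0.24, adjusted p = 0.0246), a call lost in MS 1 minus control 3 (-0.34, adjusted p = 0.0885).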

How the data were processed

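The deposited values are FPKM per gene and library, per the file headers, from 6 RNA-seq libraries. Build mm39 and the tools StringTie 2.1.6, HISAT2 2.2.1, edgeR, cutadapt 1.9 and DESeq2 are listed, without role or order, per the submitters' processing notes. Treatment of fragments that map to several places, filters and use of strand in counting were not given in the sources used here. Poly(A) RNA bound to oligo(dT) was sequenced in libraries that mark the strand with dUTP, read as 150 bp pairs, per the labels' protocols. Since FPKM hold no counts, no count model was fitted, and absolute depth is unknown. Below 0.5 FPKM, ratios of 1 gene between libraries piled up at fixed values, which put the normalizing totals at 0.961 to 1.008 of that of control 1.

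Rows with a mean of at least 1 FPKM were tested across all genes on log2(FPKM + 1) with limma 3.58.1 in R 4.3.3 (lmFit, eBayes with trend, two-sided, Benjamini-Hochberg). This scale understates changes of low rows. A pair of members was compared by its log2 ratio with an exact permutation test (scipy 1.17.1). Copies were sought with blastn 2.17.0 in GENCODE M21 transcripts (GRCm38), used by gene ID and not by coordinates. Symbols came from a reference table of gene IDs. The fit was tested on simulated data. Members, gene lists and the 3-set term were chosen with earlier results of these data known. The 37 rows may all be named; of the nuclear list, up to 3 called genes with the largest rise and fall are. Alternatives were the pseudocount, the filter, scaling to genes off the mitochondrial chromosome, no trend, a replicate block, library terms and leaving libraries out. The genes used for scaling include the chromosome 1 copies.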

Additional observations from a re-analysis of the deposited data

How the results depend on the processing

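The 13 messages and 2 ribosomal RNA rows kept their direction and call in all 15 alternatives tried, with log2 fold changes from -3.36 to -2.11 for messages, 3.36 to 3.99 for mt-Rnr1 and 0.86 to 1.48 for mt-Rnr2. Same-numbered libraries did not deviate together (correlations of -0.33, 0.25 and -0.37), so the values gave no sign of pairing by number. Control 3 and MS 1 did deviate together (0.46). With 3 libraries per group these correlations cannot show whether cultures or preparations were paired. With a replicate block 3323 genes were called higher and 2567 lower. The term for 3 library sets, chosen after seeing the data, left 1845 genes called higher and 1321 lower. Transfer RNA rows called higher were 1, and light-strand rows called higher 0, without the filter, under both scalings, without the trend, with the block and with 3 sets, and 1 to 2 and 0 to 1 when single libraries were left out, because mt-Ty lost its call (0.32 to 0.67). A term for control 3 and MS 1 called 7 light-strand rows lower, mt-Ta, mt-Tc and mt-Tp in addition. Among rows not called, mt-Tv (-0.41 to -1.26) was called lower in 5 alternatives and mt-Ti without control 1. The sign of mt-Tn, never called, turned under scaling to the sum (-0.032) or median of ratios (-0.036) and without control 1, control 2 or MS 1 (-0.11 to 0.14 over the libraries left out). The ratio of mt-Nd4 to mt-Nd5 turned without control 3 or MS 2 (-0.043 to 0.080 over the libraries left out). The light-strand share was 1.14% and 0.917% in control and MS without transfer RNA rows and 5.22% and 8.82% without weighting by length, and the ribosomal share of control was then 1.12%. The cause of these shifts was not tested. Depth is unknown, so rows near 1 FPKM carry no counting error here.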

Other observations

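The rows mt-Th, mt-Ts2 and mt-Tl2, for histidine, serine and leucine, follow each other between mt-Nd4 and mt-Nd5 and varied more among the control libraries than the messages beside them. mt-Th was at 8.22, 14.0 and 40.0 FPKM in control 1, 2 and 3, mt-Ts2 at 4.40, 10.4 and 32.8, and mt-Tl2 at 4.24, 9.03 and 22.7. In MS all 3 rows lay between 0.375 and 1.83 FPKM. Over the same control libraries mt-Nd4 ranged from 1630 to 1752 FPKM and mt-Nd5 from 1623 to 1894.

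The longest run of A was 5 bases in mt-Rnr1 and 7 in mt-Rnr2, and between 3 (mt-Nd6) and 8 (mt-Nd2) in the 13 messages. The A content was 37.8% and 38.2% in the ribosomal RNAs and 22.2% to 40.7% in the messages.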
